A study of Mus musculus with 67 samples.

Results

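Trophectoderm (TE) libraries were set against inner cell mass (ICM) libraries of the mouse blastocyst at embryonic day 3.5 (E3.5), with 3 libraries of each, 6 of the 67 libraries in the series. The libraries were chosen by their labels alone, and all genes of the deposited table entered, of which 15567 of 25006 could be tested. All embryos were wild type and from natural matings. The study used a mouse line in which the Pdgfra promoter drives EGFP to help isolate lineages; whether the embryos of every group carried it, and their strain, is not given in the sources used here. At E3.5 the zona pellucida was removed with pronase, and the embryos were taken apart into single cells in calcium-free medium by pipetting. How TE and ICM cells were then told apart is not stated in the labels. About 10 to 100 cells were lysed for each library, and the polyadenylated RNA was copied and amplified by Smart-seq2, a full-length method, for 17 PCR cycles. The 3 libraries of a group are described as biological replicates, without saying whether they came from separate embryos or pools, so that p-values measure the spread between these libraries. TE of E4.5 and epiblast (Epi) of E4.5, also wild type with 3 libraries each and taken apart with trypsin, served for the same kind of comparison a day later.

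At the blastocyst stage the outer cells form the TE, a polarised epithelium that seals the embryo, pumps fluid into the blastocoel cavity, attaches to the uterus and gives rise to the placental trophoblast. The inner cells form the ICM, a mixture of precursors of the pluripotent epiblast and of the primitive endoderm. In the outer cells Hippo signalling is low, so that YAP can act with the DNA-binding factor TEAD4 on Cdx2 and Gata3. In the inner cells OCT4, SOX2 and NANOG sustain pluripotency, and FGF4 from these cells acts on FGF receptors of neighbouring cells.

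The 6 libraries were alike in breadth. Between 10077 and 10220 genes reached 1 TPM (a length-scaled share of the transcripts in a library) in TE, against 10449 to 10576 in ICM. Pearson correlations of log2(TPM + 1) across genes were 0.983 to 0.990 within a group and 0.932 to 0.934 between groups. The ribosomal RNA precursor Rn45s took 0.467% to 0.539% of the TPM in TE and 0.526% to 0.601% in ICM. The reads behind a TPM value are not known, and a library of few cells holds PCR copies of few molecules, so no counting interval is given. A list of genes of uterus, stroma and blood, 8 of whose members could be tested, summed to 3.29 to 6.77 TPM in TE and 84.1 to 93.5 TPM in ICM. The vessel and blood cell marker Pecam1, which mouse pluripotent cells are also known to express, made up most of the ICM sum (1.31, 4.22 and 3.48 TPM in TE, against 92.8, 81.7 and 83.4 TPM in ICM). The blood marker Ptprc and the stromal and uterine markers Pgr, Ltf and Col1a1 did not reach 1 TPM in the required number of libraries and were not tested.

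The markers went with the labels. Krt18, a keratin of simple epithelia, had 4787, 5006 and 4920.2 TPM in TE, against 141, 136 and 124 TPM in ICM. Cdx2, the caudal-type homeobox factor that specifies TE, had 35.8, 26.1 and 29.3 TPM in TE, against 0, 1.24 and 1.68 TPM in ICM. Nanog, a homeobox factor of pluripotent cells, had 65.1, 64.8 and 80.2 TPM in TE, against 397, 389 and 427 TPM in ICM. For each of these genes all TE libraries lay on the labelled side of all ICM libraries. The ICM mean was 2.72% of the TE mean for Krt18, 3.21% for Cdx2 and 2.9% for Id2. The TE mean was 17.3% of the ICM mean for Nanog, against 2.24% for Tdgf1, 1.45% for Fgf4 and 4.39% for Sox2, while Gata4 was listed at 0 in every TE library. The part of ICM cells carried into TE libraries, or of TE cells in ICM libraries, was not tested. In such pools fewer cells of a type and less RNA per cell cannot be told apart.

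The promoters of a few genes on which the contrast turns are shown to give the sequences beside the values, 250 bases before to 50 bases after the annotated start, read 5′ to 3′ along the gene from RefSeq on GRCm38.p6. Capitals mark matches to 5 of the motifs searched, on either strand: the TEAD core GGAATG, the GATA core AGATAA, the AP-2 core GCCNNNGGC, the octamer ATGCAAA bound by OCT4, alone or joined to the SOX core CATTGT with 1 base between them, and the TATA box core TATAAA. The first 3 genes were higher in TE, and the last 2 were lower.
Cdx2 (chr5:147307200-147307499, minus strand): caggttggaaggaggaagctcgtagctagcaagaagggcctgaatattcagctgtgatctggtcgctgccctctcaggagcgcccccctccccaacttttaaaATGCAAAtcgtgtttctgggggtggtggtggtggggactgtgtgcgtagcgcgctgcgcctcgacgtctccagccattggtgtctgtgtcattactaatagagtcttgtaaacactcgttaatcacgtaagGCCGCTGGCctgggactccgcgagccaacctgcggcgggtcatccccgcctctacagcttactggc
Krt8 (chr15:102004293-102004592, minus strand): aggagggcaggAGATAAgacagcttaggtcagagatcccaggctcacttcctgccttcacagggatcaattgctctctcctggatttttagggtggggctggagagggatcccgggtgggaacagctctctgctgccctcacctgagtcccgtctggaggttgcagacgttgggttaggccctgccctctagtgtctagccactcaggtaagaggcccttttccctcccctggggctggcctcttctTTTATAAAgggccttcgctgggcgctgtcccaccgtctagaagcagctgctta
Krt18 (chr15:102027966-102028265, plus strand): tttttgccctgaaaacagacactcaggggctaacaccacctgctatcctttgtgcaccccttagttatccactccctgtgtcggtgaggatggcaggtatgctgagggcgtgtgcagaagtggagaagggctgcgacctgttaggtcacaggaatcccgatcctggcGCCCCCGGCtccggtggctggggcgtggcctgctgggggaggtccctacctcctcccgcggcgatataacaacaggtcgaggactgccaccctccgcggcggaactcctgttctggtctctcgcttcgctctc
Nanog (chr6:122707239-122707538, plus strand): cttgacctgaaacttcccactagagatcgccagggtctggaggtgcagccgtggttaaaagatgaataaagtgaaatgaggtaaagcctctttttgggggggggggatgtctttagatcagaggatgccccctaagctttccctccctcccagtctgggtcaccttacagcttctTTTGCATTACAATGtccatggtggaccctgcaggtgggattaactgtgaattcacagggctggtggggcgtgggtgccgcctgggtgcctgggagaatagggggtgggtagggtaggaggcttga
Fgf4 (chr7:144861136-144861435, plus strand): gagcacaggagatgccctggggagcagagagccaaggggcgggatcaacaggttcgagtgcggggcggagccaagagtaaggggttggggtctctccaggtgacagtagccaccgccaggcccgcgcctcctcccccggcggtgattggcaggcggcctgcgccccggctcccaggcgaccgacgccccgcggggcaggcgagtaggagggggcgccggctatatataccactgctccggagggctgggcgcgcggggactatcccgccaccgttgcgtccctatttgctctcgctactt

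The Cdx2 window held an octamer and an AP-2 core, the Krt8 window a GATA core and 2 overlapping TATA box cores, 1 on each strand, and the Krt18 window an AP-2 core. The Nanog window held the octamer as part of the joined octamer and SOX motif on the minus strand, and the Fgf4 window held none of these motifs. Among the promoters of 12003 tested genes the joined motif occurred in 1, that of Nanog. The TEAD core occurred in 16.1% of the promoters of genes higher in TE, in 14.1% of those of genes lower in TE and in 12.2% of all. The GATA core occurred in 7.09%, 9.80% and 6.92%, the AP-2 core in 25.4%, 23.02% and 24.4%, the octamer in 3.55%, 4.74% and 3.51% and the TATA box core in 8.05%, 10.7% and 7.86%, in the same order. The KLF core CCNCNCCC, which is not shown in capitals, occurred in 73.8%, 65.3% and 67.3%. These shares describe letters in short windows and say nothing of whether a factor bound there.

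Between TE and ICM, 922 genes were higher in TE (5.92% of those tested) and 1186 were lower (7.62%), each at an adjusted p under 0.05 and a log2 difference of at least 1. The counts of called genes in each list below are to be read beside these shares. Differences are TE minus ICM on the log2(TPM + 1) scale, which understates the change of genes at low levels, and are given with their standard error. Every TE library lay above every ICM library for 2756 genes (17.7%) and below for 4251 (27.3%), called or not. The median difference over all genes was -0.06 log2. Scaling each library to a common median ratio gave 1101 genes higher and 956 lower, so the larger number of lower genes depended on the scale.

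**Figure D1:**
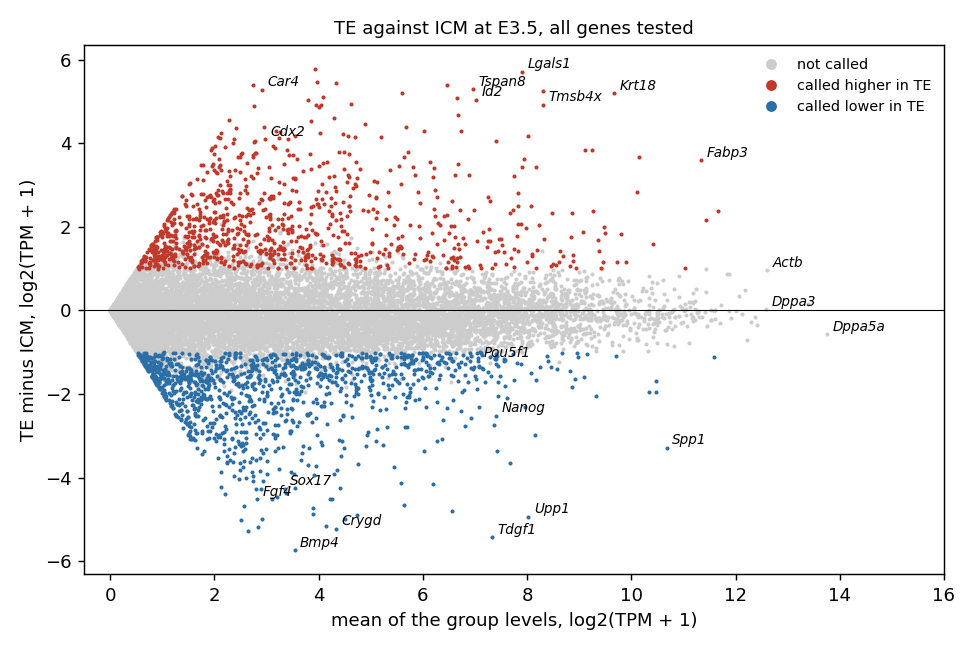
Each point is 1 of 15567 genes; the x axis is the mean of the group levels and the y axis the difference TE minus ICM, both in log2(TPM + 1), with genes called higher in TE in red and lower in blue. Krt18 and Lgals1 lie near the top and Spp1 at the lower right, while Actb, Dppa3 and Dppa5a were not called.

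Transcription factors of the trophectoderm had 10 of 23 tested members higher in TE and 2 lower, with a list median of 0.97 log2 against -0.06 for all genes. The dominant-negative helix-loop-helix gene Id2 had 743, 761 and 721 TPM in TE, against 20.9, 23.2 and 20.5 TPM in ICM (log2 difference 5.05 ± 0.22, adjusted p = 1.5e-25). The zinc finger factor Gata3 had 216, 234 and 267 TPM in TE, against 25.1, 18.4 and 15.3 TPM in ICM (log2 difference 3.56 ± 0.71, adjusted p = 9.3e-05). Its relative Gata2 had 23.2, 22.2 and 23.9 TPM in TE, against 1.12, 1.67 and 0 TPM in ICM (log2 difference 3.76 ± 0.56, adjusted p = 3.9e-07). All 3 genes were far above their ICM level in every TE library, Id2 being the one with the highest level in TE. Cdx2 differed by 4.10 ± 0.48 log2 (adjusted p = 9.4e-10). The epithelial factors Ovol1 (18.5 ± 1.68 TPM in TE, 1.29 ± 0.913 in ICM, log2 difference 3.16 ± 0.52, adjusted p = 3.8e-06) and Grhl1 (12 ± 2.84 TPM in TE, 0.846 ± 0.894 in ICM, log2 difference 2.89 ± 0.64, adjusted p = 0.00049) were also higher. So was the AP-2 gene Tfap2a (11.4 ± 0.497 TPM in TE, 0.821 ± 0.515 in ICM, log2 difference 2.80 ± 0.25, adjusted p = 2.0e-13).

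Not all factors tied to trophoblast were higher. Hand1, a helix-loop-helix factor of giant cells, had 0, 0.655 and 0 TPM in TE, against 6.1, 4.23 and 5.68 TPM in ICM and fell (log2 difference -2.41 ± 0.33, adjusted p = 5.6e-08). The T-box factor Tbx3 was also lower (8.6 ± 0.487 TPM in TE, 19.13 ± 1.38 in ICM, log2 difference -1.07 ± 0.32, adjusted p = 0.012). Tbx3 was not called under median-ratio scaling (log2 difference -0.90), quantile normalization (-0.85) or a pseudocount of 0.1 TPM (adjusted p = 0.31). Klf5 (201 ± 27.7 TPM in TE, 107 ± 14.7 in ICM, log2 difference 0.91 ± 0.33, adjusted p = 0.047) was not called as deposited, but was under median-ratio scaling. Elf3 (569.8 ± 69.4 TPM in TE, 291 ± 29.6 in ICM, log2 difference 0.97 ± 0.45, adjusted p = 0.14) was not called. Tfap2c, another AP-2 gene, was not called either (46.8 ± 5.06 TPM in TE, 53.2 ± 4.61 in ICM). Of 20 genes of extra-embryonic ectoderm, the later polar TE derivative, 7 were higher and 3 lower. Elf5, an ETS factor of trophoblast stem cells, had 16.5, 9.21 and 12.9 TPM in TE, against 0.428, 0.644 and 0 TPM in ICM (log2 difference 3.35 ± 0.24, adjusted p = 1.6e-16). The T-box gene Eomes had 50.2, 40.4 and 42.2 TPM in TE, against 11.1, 11.2 and 5.71 TPM in ICM (log2 difference 2.18 ± 0.24, adjusted p = 2.8e-10), with no overlap between the groups. Esrrb (0.926 ± 0.379 TPM in TE, 6.06 ± 1.14 in ICM), Sox2 and Bmp4, which extra-embryonic ectoderm also expresses, were the lower ones. None of 17 tested giant cell genes was called higher by limma, though 1 had an unadjusted p under 0.05 and 1 was called with array weights or without ICM replicate 2. Hand1 was the 1 that was lower.

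**Figure D2:**
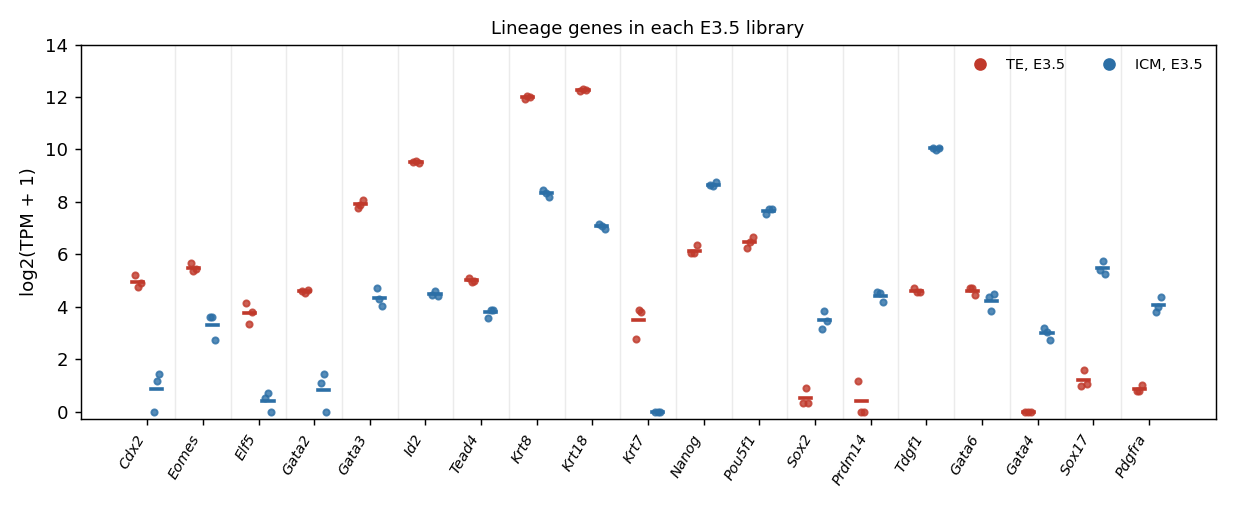
Levels of lineage genes as log2(TPM + 1) in each E3.5 library, TE in red on the left and ICM in blue on the right of each gene, with a bar at the group mean. Cdx2 to Krt7 are higher in TE, Nanog to Tdgf1 and Gata4 to Pdgfra are lower, and Gata6 overlaps.

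Pluripotency factors had 18 of 28 tested members lower in TE and none higher (median -1.46 log2). Every TE library lay below every ICM library for 23 of the 28 and above for 1, against 27.3% and 17.7% of all genes. The Nodal co-receptor gene Tdgf1 had 25, 22.7 and 22.8 TPM in TE, against 1059, 1014 and 1077 TPM in ICM (log2 difference -5.43 ± 0.21, adjusted p = 1.9e-27). The threonine dehydrogenase gene Tdh, an enzyme on which mouse embryonic stem cells depend, had 3.24, 5.76 and 2.88 TPM in TE, against 156, 135 and 134 TPM in ICM (log2 difference -4.89 ± 0.40, adjusted p = 1.1e-14). Prdm14, a chromatin regulator of naive cells, had 1.25, 0 and 0 TPM in TE, against 22.5, 22.2 and 17.1 TPM in ICM (log2 difference -4.03 ± 0.43, adjusted p = 7.2e-11). In these genes the TE mean was 2.02% to 2.80% of the ICM mean. Morc1 was lower as well (1.7 ± 0.262 TPM in TE, 50.02 ± 4.97 in ICM, log2 difference -4.24 ± 0.32, adjusted p = 4.4e-16). The AKT co-activator gene Tcl1 followed (10.5 ± 1.26 TPM in TE, 198 ± 9.34 in ICM, log2 difference -4.12 ± 0.31, adjusted p = 7.5e-16). Utf1, a chromatin factor of embryonic stem cells, was lower, at a high level in ICM (99.8 ± 10.4 TPM in TE, 792 ± 20.03 in ICM, log2 difference -2.98 ± 0.16, adjusted p = 3.7e-21). The zinc finger gene Zscan10 was lower as well (0.748 ± 0.676 TPM in TE, 23.5 ± 4.81 in ICM, log2 difference -3.86 ± 0.48, adjusted p = 5.3e-09).

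Other members of the list differed much less. Pou5f1, which encodes OCT4, had 74.4, 86.7 and 101 TPM in TE, against 184, 212 and 209 TPM in ICM (log2 difference -1.21 ± 0.40, adjusted p = 0.026). The call was not made when ICM replicate 2 or 3 or TE replicate 1 or 2 was left out (adjusted p between 0.064 and 0.10) or under median-ratio scaling (0.065) or a pseudocount of 0.1 TPM (0.33). The smaller pseudocount left the Pou5f1 difference at -1.22 log2, and the fitted spread is shared over all 67 libraries. Dppa5a (11959.5, 11412 and 10515 TPM in TE, against 16953, 16902 and 16580.0 TPM in ICM) had a difference of -0.58 ± 0.09 log2, below the called size although the libraries did not overlap. The maternal factor Dppa3 (6480.1, 6173 and 5955 TPM in TE, against 6273, 5911 and 6088 TPM in ICM) overlapped. The list thus ran from genes near 0 in TE to genes whose libraries overlapped.

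Primitive endoderm genes, whose precursors sit in the ICM, had 11 of 24 members lower in TE and 2 higher (median -0.87 log2). The SRY-box factor Sox17 had 0.959, 1.98 and 1.08 TPM in TE, against 41.3, 52.4 and 37.3 TPM in ICM (log2 difference -4.27 ± 0.34, adjusted p = 3.8e-15). Gata4, a later factor of the lineage, was listed at 0 in every TE library, against 8.17, 7.18 and 5.59 TPM in ICM (adjusted p = 8.3e-11). Serpinh1, a collagen chaperone, had 0, 0 and 0.136 TPM in TE, against 6.22, 9.99 and 7.83 TPM in ICM (log2 difference -3.09 ± 0.39, adjusted p = 6.0e-09). Pdgfra, the receptor gene whose promoter drives the reporter, had 0.719, 0.738 and 0.996 TPM in TE, against 12.9, 15 and 19.8 TPM in ICM (log2 difference -3.20 ± 0.33, adjusted p = 1.8e-11). These genes were at or near the bottom of the scale in TE and modest in ICM. In contrast Gata6, the factor that starts the lineage, had 25, 25.2 and 20.8 TPM in TE, against 19.7, 13.1 and 21.4 TPM in ICM, with overlapping libraries and no call (log2 difference 0.39 ± 0.33, adjusted p = 0.52).

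The 2 members that were higher in TE act in endocytosis. The adaptor gene Dab2 had 489.8, 516 and 518 TPM in TE, against 16.1, 18.7 and 22.8 TPM in ICM (log2 difference 4.66 ± 0.29, adjusted p = 6.5e-19). Lrp2, the receptor megalin that DAB2 serves, had 32, 34 and 33.4 TPM in TE, against 1.3, 1.39 and 1.07 TPM in ICM (log2 difference 3.93 ± 0.25, adjusted p = 7.0e-19). Both separated the groups fully.

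Hippo pathway genes were higher in TE for 5 of 28 and lower for 3. The number higher was 8 under quantile normalization and median-ratio scaling, and 3 without ICM replicate 1. Among the DNA-binding factors, Tead2 had 20.7, 19 and 17.3 TPM in TE, against 2.56, 4.97 and 3.995 TPM in ICM (log2 difference 2.07 ± 0.27, adjusted p = 1.3e-08). Tead4, required for TE, had 32.8, 29.7 and 30.8 TPM in TE, against 10.9, 13.6 and 13.8 TPM in ICM (log2 difference 1.22 ± 0.42, adjusted p = 0.029). Leaving out any 1 of the 6 libraries gave an adjusted p between 0.056 and 0.10, and a pseudocount of 0.1 TPM gave 0.14. The Tead4 difference stayed between 1.12 and 1.28 log2 when a library was left out. The fitted spread is shared over all 67 libraries. Tead1 was not called (2.55 ± 0.51 TPM in TE, 3.87 ± 0.515 in ICM). Neither were the co-activators Yap1 (2.74 ± 0.914 TPM in TE, 3.9 ± 1.22 in ICM) and Wwtr1 (19.3 ± 1.18 TPM in TE, 22.8 ± 3.21 in ICM). The TEAD cofactor gene Vgll4 had 15.6, 16.2 and 16.7 TPM in TE, against 0.479, 1.71 and 0.286 TPM in ICM (log2 difference 3.31 ± 0.44, adjusted p = 2.9e-08). Vgll3 had 11.9, 11.9 and 11.6 TPM in TE, against 0.388, 0 and 0.132 TPM in ICM (log2 difference 3.46 ± 0.27, adjusted p = 4.0e-15). Both cofactors were close to 0 in ICM. Sav1, the scaffold of the upstream kinases, was the fifth (1.68 ± 0.64 TPM in TE, 0.217 ± 0.337 in ICM, log2 difference 1.14 ± 0.41, adjusted p = 0.040). The Sav1 call was lost without TE replicate 1 or 3 or ICM replicate 1 or 3 (adjusted p between 0.13 and 0.15), with no filter on low values (0.059) and at a pseudocount of 0.1 TPM (0.052).

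The lower members included target genes of YAP that are used elsewhere as readouts. Ccn1 had 10.1, 11.5 and 17.7 TPM in TE, against 47.6, 56 and 44.9 TPM in ICM (log2 difference -1.87 ± 0.24, adjusted p = 1.7e-08). Ccn2 had 1.53, 1.57 and 1.81 TPM in TE, against 11.7, 13.7 and 12.7 TPM in ICM (log2 difference -2.38 ± 0.43, adjusted p = 1.7e-05). The kinase gene Map4k4 also fell (0.883 ± 0.405 TPM in TE, 4.52 ± 0.771 in ICM, log2 difference -1.57 ± 0.34, adjusted p = 0.00034). Thus Cdx2, Gata3, Tead2 and the cofactor genes Vgll3 and Vgll4 were higher in TE while Ccn1 and Ccn2 were lower. The kinase genes Lats1 (0.541 ± 0.164 TPM in TE, 1.03 ± 0.641 in ICM) and Lats2 (7.84 ± 1.53 TPM in TE, 5.63 ± 0.931 in ICM) were not called. The upstream regulators Nf2 (8.84 ± 2.43 TPM in TE, 12.1 ± 2.12 in ICM) and Amot (2.07 ± 0.339 TPM in TE, 2.3 ± 0.116 in ICM) were not called either. Of 18 Notch pathway genes tested none was called in either direction by limma, 2 had an unadjusted p under 0.05, and 1 was called lower with array weights, at a pseudocount of 0.1 TPM or without ICM replicate 1. In this pathway the target gene Hes1 was 69.8 ± 8.2 TPM in TE, 113 ± 1.17 in ICM (log2 difference -0.69 ± 0.29, adjusted p = 0.097).

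Keratin and desmosome genes had 7 of 16 members higher in TE and none lower (median 0.90 log2). Krt8, the partner of Krt18 in simple epithelial filaments and its neighbour on chromosome 15, had 3880.4, 4165 and 4114 TPM in TE, against 349, 320.3 and 289 TPM in ICM (log2 difference 3.66 ± 0.28, adjusted p = 5.8e-16). Krt7 was at 5.79, 13.7 and 12.7 TPM in TE and listed at 0 in every ICM library (adjusted p = 6.2e-07), whereas Krt19 was listed at 0 in every TE library and had 0, 0.227 and 1.84 TPM in ICM. Krt8 and Krt18 have processed copies in the genome, which makes their levels uncertain. The plaque gene Pkp2 had 23.6, 29.6 and 37.3 TPM in TE, against 0, 3.84 and 3.07 TPM in ICM (log2 difference 3.51 ± 0.53, adjusted p = 4.9e-07). Its desmosomal partner Dsc2 was higher too (12.8 ± 0.81 TPM in TE, 1.2 ± 0.643 in ICM, log2 difference 2.70 ± 0.34, adjusted p = 5.3e-09). The linker gene Dsp was also higher (8.07 ± 1.56 TPM in TE, 1.19 ± 0.337 in ICM, log2 difference 2.05 ± 0.51, adjusted p = 0.0018). Perp, a desmosome-associated membrane protein gene, completed the list (201 ± 25.9 TPM in TE, 26.9 ± 8.08 in ICM, log2 difference 2.89 ± 0.44, adjusted p = 8.4e-07). Jup (25.9 ± 2.24 TPM in TE, 14.8 ± 2.73 in ICM) and Dsg2 (7.87 ± 1.49 TPM in TE, 4.6 ± 3.05 in ICM) were not called, so that some desmosome genes were higher and others not.

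Tight junction genes were higher for 10 of 19 and lower for 2, with a median of 1.30 log2, the highest median of the lists. The claudin gene Cldn6 had 202, 229 and 256 TPM in TE, against 7.98, 8.48 and 14.4 TPM in ICM (log2 difference 4.38 ± 0.14, adjusted p = 4.6e-31). Cldn3 had 54.7, 70.6 and 79.2 TPM in TE, against 12.7, 5.8 and 3.54 TPM in ICM (log2 difference 3.19 ± 0.35, adjusted p = 1.4e-10). Cldn4 had 50.1, 48.8 and 62.1 TPM in TE, against 6.999, 6.4 and 5.98 TPM in ICM (log2 difference 2.87 ± 0.37, adjusted p = 1.1e-08). Cldn7 was the most abundant of the 4 in TE (538 ± 55 TPM in TE, 94.5 ± 8.27 in ICM, log2 difference 2.496 ± 0.19, adjusted p = 1.5e-15). Of 14 claudin genes tested, these 4 were higher, while Cldn18 was listed at 0 in every TE library, against 2.14, 1.5 and 3.91 TPM in ICM (adjusted p = 1.1e-13). The scaffold gene Tjp3 was higher (28.3 ± 7.02 TPM in TE, 3.32 ± 2.4 in ICM, log2 difference 2.88 ± 0.68, adjusted p = 0.0011), and Tjp1 (3.53 ± 0.265 TPM in TE, 2.64 ± 0.677 in ICM) was not called. The Tjp3 call was not made with a pseudocount of 0.1 TPM (adjusted p = 0.052). Ocln (20.6 ± 0.373 TPM in TE, 11.6 ± 4.25 in ICM) and Cgn (56.7 ± 2.92 TPM in TE, 45.8 ± 2.76 in ICM) were not called. Cxadr (22.4 ± 1.1 TPM in TE, 11.5 ± 1.02 in ICM, log2 difference 0.90 ± 0.37, adjusted p = 0.084) was not called as deposited, but was under median-ratio scaling. The lower members were the junctional adhesion gene Jam2 (4.24, 2.69 and 2.79 TPM in TE, against 55.9, 56.3 and 52 TPM in ICM, log2 difference -3.73 ± 0.19, adjusted p = 1.6e-22) and the small GTPase gene Rab13 (2.97 ± 1.02 TPM in TE, 15.1 ± 4.66 in ICM, log2 difference -2.02 ± 0.50, adjusted p = 0.0017).

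Genes of adherens junctions and the apical domain were higher for 8 of 30 and lower for 2. E-cadherin, Cdh1, had 43.7, 49 and 48.8 TPM in TE, against 16.6, 16.1 and 20.8 TPM in ICM (log2 difference 1.36 ± 0.28, adjusted p = 0.00020), while its partner Ctnna1 (193 ± 15.3 TPM in TE, 149 ± 16.3 in ICM) was not called. The epithelial adhesion gene Epcam was higher (1689.5 ± 68.2 TPM in TE, 473 ± 35.4 in ICM, log2 difference 1.84 ± 0.13, adjusted p = 2.5e-17). The apical determinant gene Crb3 had 142, 154 and 161 TPM in TE, against 8.56, 6.6 and 8.01 TPM in ICM (log2 difference 4.14 ± 0.41, adjusted p = 7.0e-12). The scaffold gene Pdzk1 had 64.9, 67 and 71.9 TPM in TE, against 2.13, 2.85 and 1.18 TPM in ICM (log2 difference 4.54 ± 0.52, adjusted p = 4.5e-10). Slc9a3r1 had 153, 149 and 174 TPM in TE, against 27.2, 22.6 and 15.6 TPM in ICM (log2 difference 2.84 ± 0.17, adjusted p = 2.6e-19). These apical genes showed wide gaps between the groups. The actin-membrane linkers lay on opposite sides. Moesin, Msn, had 73.9, 70.2 and 69.4 TPM in TE, against 6.12, 5.81 and 5.68 TPM in ICM (log2 difference 3.39 ± 0.51, adjusted p = 5.9e-07). Ezrin, Ezr, had 28.5, 33.7 and 40.5 TPM in TE, against 84.2, 99.4 and 93 TPM in ICM (log2 difference -1.41 ± 0.18, adjusted p = 9.4e-09). The atypical protein kinase C gene Prkci (8.16 ± 1.06 TPM in TE, 20.2 ± 4.35 in ICM, log2 difference -1.19 ± 0.38, adjusted p = 0.019) fell and Pard6b (14.9 ± 1.49 TPM in TE, 4.7 ± 0.585 in ICM, log2 difference 1.48 ± 0.49, adjusted p = 0.025) rose. Leaving out 1 library ended the call for 3 of 6 libraries for Prkci (adjusted p 0.069 without ICM replicate 2, 0.082 without ICM replicate 3 and 0.079 without TE replicate 2), as did quantile normalization (0.062) and a pseudocount of 0.1 TPM (0.051). For Pard6b it did so for every library but ICM replicate 1, with adjusted p between 0.051 and 0.080, and for a pseudocount of 0.1 TPM (0.20). Prkcz, the other atypical kinase of the list, was 71.5 ± 5.06 TPM in TE, 48.6 ± 1.87 in ICM and not called.

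Actin cytoskeleton genes were higher for 15 of 34 and lower for 2, with a median of 0.98 log2. Thymosin beta 4, Tmsb4x, which binds free actin, had 1842, 1784 and 1619.7 TPM in TE, against 59.9, 47.7 and 62.9 TPM in ICM (log2 difference 4.93 ± 0.45, adjusted p = 4.2e-13). Its relative Tmsb10 followed (7438 ± 472 TPM in TE, 1429 ± 29.2 in ICM, log2 difference 2.38 ± 0.12, adjusted p = 3.0e-22). The calponin gene Cnn2 (177 ± 22.4 TPM in TE, 13 ± 1.84 in ICM, log2 difference 3.67 ± 0.50, adjusted p = 4.1e-08) and the actin bundler Lcp1 (241 ± 21.4 TPM in TE, 22 ± 1.77 in ICM, log2 difference 3.40 ± 0.47, adjusted p = 9.1e-08) were also higher. The non-muscle myosin gene Myh10 was higher at a lower level (71.7 ± 3.45 TPM in TE, 8.18 ± 2.4 in ICM, log2 difference 3.02 ± 0.34, adjusted p = 2.4e-10). Beta-actin itself, Actb, had 8900.4, 8718 and 8412 TPM in TE, against 4481, 4576 and 4348 TPM in ICM, 0.96 ± 0.15 log2, short of the called size as deposited and past it under median-ratio scaling. Pfn1 did likewise (4970.2 ± 45.4 TPM in TE, 2699.6 ± 124 in ICM, 0.88 ± 0.09 log2). The filopodial bundler Fscn1 went the other way (4.34, 4.4 and 4.83 TPM in TE, against 45.9, 48.1 and 49.3 TPM in ICM, log2 difference -3.14 ± 0.28, adjusted p = 2.9e-13). Tpm2 was the other lower member (2.01 ± 1.32 TPM in TE, 5.29 ± 1.95 in ICM, log2 difference -1.13 ± 0.41, adjusted p = 0.042). Tpm2 was not called without ICM replicate 1 (adjusted p = 0.18), ICM replicate 3 (0.14) or TE replicate 3 (0.38), nor under median-ratio scaling (0.10), quantile normalization (0.078) or with these libraries fitted alone (0.071).

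Calcium-binding S100 and annexin genes, a family picked by name after values were seen, were higher for 6 of 21. S100a11 had 1171, 1048 and 1084 TPM in TE, against 58.5, 55.6 and 65.5 TPM in ICM (log2 difference 4.18 ± 0.25, adjusted p = 1.1e-19). Anxa2, a membrane-binding partner of S100 proteins, had 884, 827 and 842 TPM in TE, against 61.7, 90.1 and 57.8 TPM in ICM (log2 difference 3.61 ± 0.32, adjusted p = 2.3e-13). Anxa3 had 80.4, 85.1 and 84.7 TPM in TE, against 2.32, 1.41 and 1.78 TPM in ICM (log2 difference 4.91 ± 0.55, adjusted p = 3.7e-10). Anxa7 (151 ± 7.23 TPM in TE, 146 ± 9.51 in ICM) and Anxa6 (68.8 ± 11.3 TPM in TE, 59.6 ± 7.59 in ICM) were not called. Anxa1 was listed at 0 in every TE library, against 2.58, 1.35 and 0.523 TPM in ICM (adjusted p = 0.026), and that call was lost when any library other than ICM replicate 3 was left out (adjusted p between 0.063 and 0.19).

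**Figure D3:**
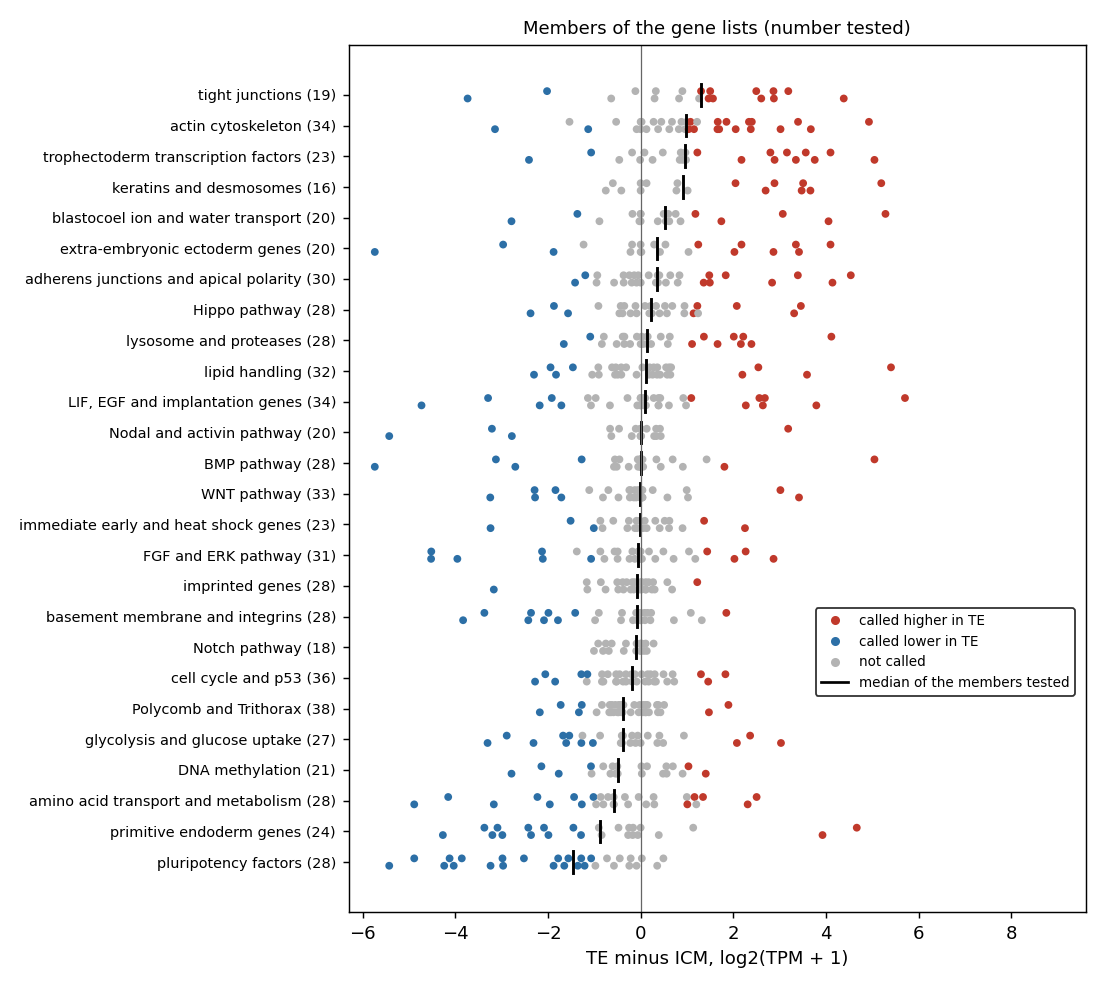
Difference TE minus ICM in log2(TPM + 1), x axis, of the tested members of 26 gene lists, ordered by their median, which is drawn as a black bar; the number tested stands after each name, and points are red where called higher in TE, blue where called lower and grey where not called. Tight junction and actin lists have the highest medians, 1.30 and 0.98, and pluripotency factors the lowest, -1.46.

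Transport genes of the kind that fill the blastocoel were higher for 5 of 20 and lower for 2. Carbonic anhydrase 4, Car4, which handles bicarbonate at the cell surface, had 42.7, 43.8 and 51.5 TPM in TE, against 0.156, 0.504 and 0 TPM in ICM (log2 difference 5.28 ± 0.15, adjusted p = 1.6e-32). The sodium pump regulator gene Fxyd6 had 27.3, 21.6 and 29.7 TPM in TE, against 0.763, 1.42 and 0 TPM in ICM (log2 difference 4.05 ± 0.44, adjusted p = 9.2e-11). Fxyd4 had 115, 105 and 111 TPM in TE, against 39.6, 27 and 31.3 TPM in ICM (log2 difference 1.74 ± 0.28, adjusted p = 1.9e-06). Car4 and Fxyd6 were near 0 in ICM, and Fxyd4 was not. The pump's beta subunit gene Atp1b1 had 101, 106 and 106 TPM in TE, against 48.4, 38.1 and 50.6 TPM in ICM (log2 difference 1.18 ± 0.23, adjusted p = 6.0e-05). Atp1b3, another beta subunit gene, was not called (129.7 ± 7.89 TPM in TE, 147 ± 5.83 in ICM). Atp1b2 was listed at 0 in every TE library, against 1.44, 1.37 and 1.96 TPM in ICM (adjusted p = 0.036), a call lost when any of the 6 libraries was left out (adjusted p between 0.065 and 0.11), and under median-ratio scaling (0.056) and quantile normalization (0.051).

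The water channels differed from each other. Aqp9, which also passes glycerol, had 55.5, 62.5 and 77.9 TPM in TE, against 7.28, 9.5 and 4.53 TPM in ICM (log2 difference 3.07 ± 0.24, adjusted p = 2.9e-15). Aqp8 had 18.1, 19.8 and 16.5 TPM in TE, against 135, 136 and 121 TPM in ICM and was lower in TE (log2 difference -2.79 ± 0.30, adjusted p = 9.5e-11). Aqp3, often named in blastocyst formation, had 100, 94 and 109 TPM in TE, against 82.2, 62 and 63.9 TPM in ICM with no call (log2 difference 0.54 ± 0.42, adjusted p = 0.47). Every TE library was thus above every ICM library for Aqp9 and below for Aqp8.

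In the FGF pathway the ligand genes Fgf3, Fgf4 and Fgf10 were lower in TE and the receptor genes Fgfr2 and Fgfr4 higher; of 31 genes 4 were higher and 6 lower. The ligand Fgf4 had 0.558, 0.622 and 0.235 TPM in TE, against 29.9, 33.5 and 34.5 TPM in ICM (log2 difference -4.52 ± 0.31, adjusted p = 2.0e-17). Fgf10 had 0.0438, 0 and 0.972 TPM in TE, against 23.3, 16.4 and 17.2 TPM in ICM (log2 difference -3.96 ± 0.43, adjusted p = 9.2e-11). Fgf3 had 0, 0 and 0.609 TPM in TE, against 3.24, 4.14 and 4.95 TPM in ICM (log2 difference -2.11 ± 0.45, adjusted p = 0.00029). All 3 ligands were at 1 TPM or less in TE. The receptor gene Fgfr2 had 20.9, 26.3 and 24.2 TPM in TE, against 4.77, 6.02 and 4.53 TPM in ICM (log2 difference 2.02 ± 0.44, adjusted p = 0.00033). That call was not made with a pseudocount of 0.1 TPM (adjusted p = 0.054). Fgfr4 had 7.58, 13.2 and 12.1 TPM in TE, against 0.751, 0.672 and 0.408 TPM in ICM (log2 difference 2.87 ± 0.41, adjusted p = 1.5e-07). Fgfr1 was lower (8.14, 6.28 and 8.4 TPM in TE, against 13.7, 18.2 and 19.5 TPM in ICM, log2 difference -1.07 ± 0.32, adjusted p = 0.012). It was not called without ICM replicate 3 (adjusted p = 0.058) or TE replicate 2 (0.065), nor under quantile normalization (0.055) or median-ratio scaling (log2 difference -0.91) or a pseudocount of 0.1 TPM (0.19). The adaptor gene Frs3 was higher at a low level (1.94 ± 0.598 TPM in TE, 0.0758 ± 0.131 in ICM, log2 difference 1.44 ± 0.48, adjusted p = 0.027). Its call was lost without ICM replicate 1 or 3 or TE replicate 1 or 3 (adjusted p between 0.078 and 0.10). The receptor gene Fgfr3 was not called (0.427 ± 0.307 TPM in TE, 0 ± 0 in ICM, adjusted p = 0.17), except with a pseudocount of 0.1 TPM.

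Genes that ERK signalling is known to induce did not go one way. Etv5 had 0.573, 0.485 and 1.4 TPM in TE, against 36.2, 38.1 and 45.3 TPM in ICM (log2 difference -4.52 ± 0.40, adjusted p = 3.0e-13). Etv1 was listed at 0 in every TE library, against 2.82, 4.16 and 3.24 TPM in ICM (adjusted p = 1.2e-06). Dusp6, the phosphatase that limits ERK, had 40.5, 52.5 and 54.4 TPM in TE, against 5.33, 10.9 and 13.6 TPM in ICM and was higher (log2 difference 2.27 ± 0.21, adjusted p = 1.6e-12). Spry2, another feedback inhibitor, was 177 ± 9.85 TPM in TE, 261 ± 4.998 in ICM (log2 difference -0.56 ± 0.42, adjusted p = 0.45). Dusp5 was 6.49 ± 1.76 TPM in TE, 18.7 ± 5.79 in ICM (log2 difference -1.38 ± 0.61, adjusted p = 0.12). Neither was called in the main fit. Dusp5 was called lower with array weights (adjusted p = 0.0012) and with the groups fitted alone (0.0050, and 0.0057 with the replicate number as a block).

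Of 28 BMP pathway genes 2 were higher and 4 lower, against 5.92% and 7.62% of all genes. The ligand gene Bmp4 had 0.144, 0.976 and 0.71 TPM in TE, against 77, 78.2 and 93.9 TPM in ICM (log2 difference -5.74 ± 0.61, adjusted p = 6.9e-11), the lowest fitted difference of all genes tested on this scale. Its receptor genes Bmpr1a (10.1 ± 0.437 TPM in TE, 5.1 ± 1.95 in ICM) and Bmpr2 (1.91 ± 0.196 TPM in TE, 0.814 ± 0.258 in ICM) were not called. Acvr1 (0.618 ± 0.229 TPM in TE, 0.638 ± 0.573 in ICM) and the mediators Smad1 (0.752 ± 0.61 TPM in TE, 1.4 ± 0.335 in ICM) and Smad5 (1.52 ± 0.737 TPM in TE, 2.4 ± 0.714 in ICM) were not called either. Inhibitor-of-differentiation genes, known BMP targets, split. Id2 was higher in TE as given above. Id3 had 32.3, 18.2 and 26.2 TPM in TE, against 210.3, 247 and 219 TPM in ICM (log2 difference -3.12 ± 0.27, adjusted p = 1.6e-13). Id1 was listed at 0 in every TE library, against 1.76, 7.55 and 10.7 TPM in ICM (adjusted p = 8.3e-10). The inhibitory Smad7 was higher (10.4, 10.5 and 10.9 TPM in TE, against 2.43, 1.85 and 2.72 TPM in ICM, log2 difference 1.81 ± 0.37, adjusted p = 0.00013). Msx2 (37.1 ± 2.16 TPM in TE, 37.8 ± 6.77 in ICM) was not called. The decoy receptor gene Bambi was the fourth lower one (5.61 ± 0.238 TPM in TE, 15 ± 0.997 in ICM, log2 difference -1.27 ± 0.47, adjusted p = 0.046). Its call was lost when any of the 6 libraries was left out (adjusted p between 0.082 and 0.11), under both other scalings (0.069 with quantiles and 0.087 with median ratios) and with a pseudocount of 0.1 TPM (0.24).

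The Nodal pathway had 1 of 20 genes higher and 3 lower, against 5.92% and 7.62% of all genes. The 4 were at the co-receptor and ligand level and at a nuclear partner. Nodal itself had 0, 0.603 and 0 TPM in TE, against 0, 0.611 and 0 TPM in ICM, with overlapping libraries. Tdgf1 (Cripto) was lower in TE and its relative Cfc1 (Cryptic) was higher (57.4, 47.2 and 55.9 TPM in TE, against 6.52, 3.48 and 5.32 TPM in ICM, log2 difference 3.18 ± 0.50, adjusted p = 1.2e-06). The ligand Gdf3 had 20.5, 17.7 and 18.1 TPM in TE, against 124, 165 and 119 TPM in ICM (log2 difference -2.78 ± 0.34, adjusted p = 3.9e-09). Foxh1, which brings SMAD2 to DNA, had 4.89, 6.35 and 2.5 TPM in TE, against 42.6, 53.9 and 49 TPM in ICM (log2 difference -3.21 ± 0.29, adjusted p = 2.7e-13). The receptor genes Acvr2a (2.52 ± 0.617 TPM in TE, 1.84 ± 0.843 in ICM) and Acvr2b (2.59 ± 0.155 TPM in TE, 1.66 ± 0.263 in ICM) were not called. The same held for Acvr1b (0.501 ± 0.0365 TPM in TE, 0.192 ± 0.089 in ICM) and Smad2 (9.27 ± 1.99 TPM in TE, 15 ± 3.83 in ICM).

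WNT pathway genes were higher for 2 of 33 and lower for 5, against 5.92% and 7.62% of all genes, and the 2 were ligands. Under quantile normalization and median-ratio scaling 4 were higher. Wnt7b had 20.8, 17.2 and 27.2 TPM in TE, against 0.173, 1.84 and 1.75 TPM in ICM (log2 difference 3.42 ± 0.56, adjusted p = 3.6e-06). Wnt3a was at 7.79, 6.89 and 6.63 TPM in TE and listed at 0 in every ICM library (adjusted p = 2.0e-24). On the lower side the R-spondin receptor Lgr4 had 5.46, 7.6 and 6.39 TPM in TE, against 35.1, 37.5 and 33.5 TPM in ICM (log2 difference -2.29 ± 0.46, adjusted p = 9.5e-05). The secreted WNT antagonist Sfrp1 had 1.08, 1.58 and 0.0921 TPM in TE, against 17.6, 15.1 and 15.6 TPM in ICM (log2 difference -3.24 ± 0.55, adjusted p = 6.4e-06). The nuclear effectors Tcf7l2 (6.8 ± 1.61 TPM in TE, 36.5 ± 5.02 in ICM, log2 difference -2.28 ± 0.31, adjusted p = 6.4e-08) and Tcf7l1 (1.16 ± 0.716 TPM in TE, 6.47 ± 0.504 in ICM, log2 difference -1.84 ± 0.37, adjusted p = 0.00011) were also lower. Porcn, the enzyme that acylates WNT ligands, made the fifth (9.61 ± 0.136 TPM in TE, 33.8 ± 2.58 in ICM, log2 difference -1.71 ± 0.50, adjusted p = 0.0087), but not at a pseudocount of 0.1 TPM (adjusted p = 0.31). Beta-catenin, Ctnnb1, was 40.9 ± 1.19 TPM in TE, 48.7 ± 3.4 in ICM and not called. Gsk3b (88.1 ± 2.97 TPM in TE, 43.7 ± 1.3 in ICM, log2 difference 0.99 ± 0.28, adjusted p = 0.0059) lay at the edge of the called size and was called under median-ratio scaling, quantile normalization, a pseudocount of 0.1 TPM and without ICM replicate 1, ICM replicate 3 or TE replicate 3 (between 1.00 and 1.16 log2).

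Genes of LIF, EGF and uterine attachment were higher for 7 of 34 and lower for 5. Il6 had 19.4, 26.2 and 17.4 TPM in TE, against 3.3, 1.84 and 2.17 TPM in ICM (log2 difference 2.68 ± 0.18, adjusted p = 2.1e-17). Lif had 1.67, 1.12 and 1.62 TPM in TE, against 0, 0.325 and 0.151 TPM in ICM (log2 difference 1.09 ± 0.33, adjusted p = 0.012). The Lif call was not made without ICM replicate 1 (adjusted p = 0.061) or TE replicate 1 (0.051). The LIF receptor Lifr had 0, 0.0901 and 0.112 TPM in TE, against 3.9, 3.69 and 3.89 TPM in ICM (log2 difference -2.18 ± 0.40, adjusted p = 2.5e-05). The shared signalling subunit Il6st had 0.101, 0.0269 and 0.545 TPM in TE, against 3.17, 2.82 and 4.91 TPM in ICM (log2 difference -1.92 ± 0.43, adjusted p = 0.00056). Both receptor genes were low in ICM and lower in TE. Of the EGF receptor family, Erbb3 had 14.5, 18.8 and 20.2 TPM in TE, against 1.89, 1.95 and 2.18 TPM in ICM (log2 difference 2.64 ± 0.34, adjusted p = 9.0e-09). Its partner Erbb2 had 6.82, 9.73 and 9.41 TPM in TE, against 0.134, 0.704 and 1.19 TPM in ICM (log2 difference 2.56 ± 0.71, adjusted p = 0.0057). The call for Erbb2 was lost with a pseudocount of 0.1 TPM (adjusted p = 0.058).

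Among the attachment genes, galectin 1, Lgals1, had 1805, 1646 and 1733 TPM in TE, against 32.7, 31.3 and 32.4 TPM in ICM (log2 difference 5.70 ± 0.26, adjusted p = 3.2e-24). The prostaglandin E synthase gene Ptges had 186, 196 and 191 TPM in TE, against 17, 9.94 and 12.5 TPM in ICM (log2 difference 3.79 ± 0.35, adjusted p = 9.0e-13). Osteopontin, Spp1, an integrin ligand, had 514, 548 and 509 TPM in TE, against 5281, 5005 and 5119 TPM in ICM (log2 difference -3.29 ± 0.30, adjusted p = 7.9e-13). The protease inhibitor gene Timp1 had 2.7, 0.71 and 2.41 TPM in TE, against 70.3, 86.7 and 63.3 TPM in ICM (log2 difference -4.73 ± 0.55, adjusted p = 7.8e-10). These 4 genes separated the groups. Lgals3, another galectin gene, was higher (164 ± 5.92 TPM in TE, 33.5 ± 5.5 in ICM, log2 difference 2.27 ± 0.30, adjusted p = 3.2e-08). Cd24a, a surface glycoprotein gene, was lower (1.49 ± 0.614 TPM in TE, 7.15 ± 1.93 in ICM, log2 difference -1.71 ± 0.37, adjusted p = 0.00036). The tetraspanin Cd9 (1796 ± 63.2 TPM in TE, 1376 ± 31.8 in ICM) and basigin, Bsg (878 ± 32.4 TPM in TE, 811 ± 10.5 in ICM), were abundant on both sides and not called.

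**Figure D4:**
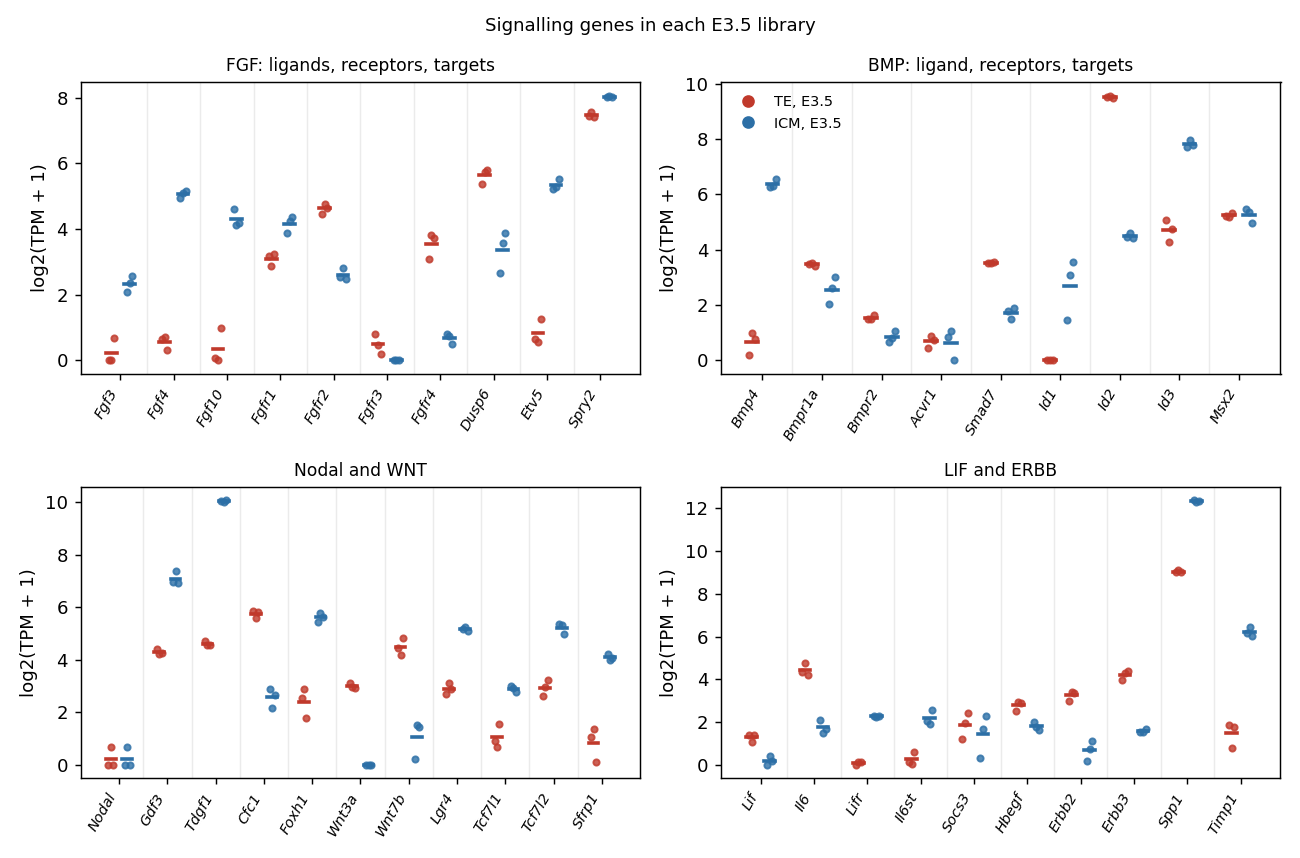
Levels of signalling genes as log2(TPM + 1) in each E3.5 library, TE in red on the left and ICM in blue on the right of each gene, with a bar at the group mean. Fgf3, Fgf4, Fgf10 and Bmp4 are near 0 in TE, while Fgfr2, Fgfr4, Wnt7b, Erbb3 and Il6 are higher in TE.

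Basement membrane and integrin genes were lower for 8 of 28 and higher for 1, and 3 were higher under quantile normalization, median-ratio scaling, array weights or with the groups fitted alone. Fibronectin, Fn1, had 0.526, 1.17 and 1.14 TPM in TE, against 23.7, 26.6 and 29.1 TPM in ICM (log2 difference -3.83 ± 0.39, adjusted p = 1.8e-11). Its integrin chain Itga5 was lower (1.71 ± 0.304 TPM in TE, 6.4 ± 2.31 in ICM, log2 difference -1.41 ± 0.43, adjusted p = 0.013). Itga5 was not called without ICM replicate 3 (adjusted p = 0.096). The matrix gene Sparc had 18, 16.7 and 22.9 TPM in TE, against 214, 206 and 199 TPM in ICM (log2 difference -3.37 ± 0.16, adjusted p = 1.5e-23). The collagen IV chain Col4a1 (1.31 ± 0.768 TPM in TE, 11 ± 0.548 in ICM, log2 difference -2.42 ± 0.30, adjusted p = 5.7e-09) and the laminin chain Lamb1 (2.9 ± 1.18 TPM in TE, 18.6 ± 2.16 in ICM, log2 difference -2.37 ± 0.30, adjusted p = 9.3e-09), which primitive endoderm precursors secrete, were also lower. The laminin chain Lamc1 was not called (4.42 ± 0.85 TPM in TE, 9.11 ± 1.42 in ICM, log2 difference -0.90 ± 0.36, adjusted p = 0.069). The higher one was the linker nidogen 2, Nid2 (3.78, 4.43 and 5.85 TPM in TE, against 0.776, 0.621 and 0.319 TPM in ICM, log2 difference 1.85 ± 0.50, adjusted p = 0.0044). The beta chain Itgb1 (24.8 ± 1.73 TPM in TE, 33.8 ± 5.11 in ICM) and Itga6 (8.65 ± 1.26 TPM in TE, 18.1 ± 2.56 in ICM, log2 difference -0.98 ± 0.38, adjusted p = 0.062) were not called in the main fit. With array weights Itga6 was called lower (-1.01 log2, adjusted p = 0.00042).

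Lysosomal and protease genes were higher for 8 of 28 and lower for 2. The surface serine protease gene Tmprss2 had 36, 32 and 46.3 TPM in TE, against 1.9, 0.767 and 1.17 TPM in ICM (log2 difference 4.12 ± 0.51, adjusted p = 4.4e-09). Prss8 had 54.6, 78.6 and 84.8 TPM in TE, against 20.1, 13.9 and 11.1 TPM in ICM (log2 difference 2.21 ± 0.31, adjusted p = 1.1e-07). Both were higher, as was Serpinb9b, a granzyme-type protease inhibitor gene (237 ± 1.98 TPM in TE, 44.8 ± 7.97 in ICM, log2 difference 2.39 ± 0.47, adjusted p = 7.0e-05). Cystatin B, Cstb, had 6189.8, 5734 and 5607 TPM in TE, against 1294, 1315 and 1298 TPM in ICM (log2 difference 2.16 ± 0.14, adjusted p = 2.9e-18). The cathepsin genes Ctsb (32.8 ± 4.32 TPM in TE, 105 ± 5.4 in ICM, log2 difference -1.66 ± 0.16, adjusted p = 1.3e-12) and Ctsz (36.6 ± 2.29 TPM in TE, 79.3 ± 11.8 in ICM, log2 difference -1.09 ± 0.21, adjusted p = 4.8e-05) were lower. The Ctsz difference was -0.92 log2 under median-ratio scaling and -0.90 under quantile normalization, below the called size. Lamp1 (744 ± 89 TPM in TE, 633 ± 31.5 in ICM) and Hexa (288 ± 15.3 TPM in TE, 304 ± 10.8 in ICM) were not called.

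Lipid genes were higher for 4 of 32 and lower for 4, with members of 1 gene family on opposite sides. Fabp3, a fatty acid binding protein gene, had 9006, 9055 and 8881 TPM in TE, against 758, 720.5 and 756 TPM in ICM (log2 difference 3.59 ± 0.16, adjusted p = 2.0e-24). By contrast Fabp5 had 115, 106 and 115 TPM in TE, against 538, 549 and 578 TPM in ICM (log2 difference -2.30 ± 0.56, adjusted p = 0.0014). The Fabp5 call was not made with a pseudocount of 0.1 TPM (adjusted p = 0.099), where the difference stayed at -2.31 log2. The apolipoprotein gene Apoe had 227, 234 and 273 TPM in TE, against 886, 784 and 938 TPM in ICM (log2 difference -1.83 ± 0.16, adjusted p = 4.0e-13). Apoa1 was higher (37.1 ± 6.06 TPM in TE, 5.59 ± 1.43 in ICM, log2 difference 2.54 ± 0.51, adjusted p = 9.9e-05). The alkaline ceramidase gene Acer1 had 41.5, 36 and 49.6 TPM in TE, against 0, 0.0488 and 0 TPM in ICM (log2 difference 5.40 ± 0.17, adjusted p = 1.1e-31). The triglyceride synthesis gene Dgat2 (3.2 ± 1.75 TPM in TE, 14.5 ± 3.31 in ICM, log2 difference -1.94 ± 0.50, adjusted p = 0.0028) was lower, and the droplet coat gene Plin2 (467 ± 5.32 TPM in TE, 873 ± 28.3 in ICM, -0.90 ± 0.29 log2) fell short of the called size.

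Glycolysis genes were higher for 3 of 27 and lower for 8. The glucose transporters lay on opposite sides. Slc2a3 had 125, 129.9 and 150.5 TPM in TE, against 15, 17.8 and 14.3 TPM in ICM (log2 difference 3.03 ± 0.29, adjusted p = 4.3e-12). Slc2a1 had 9.55, 16.1 and 15.5 TPM in TE, against 68.7, 66.5 and 76.4 TPM in ICM (log2 difference -2.31 ± 0.21, adjusted p = 3.0e-13). Hexokinase 2, Hk2, had 73.3, 81.9 and 77.4 TPM in TE, against 18.9, 11.8 and 12.9 TPM in ICM (log2 difference 2.36 ± 0.29, adjusted p = 3.4e-09). Tpi1, an enzyme further down, had 436, 453 and 499 TPM in TE, against 107, 106 and 114 TPM in ICM (log2 difference 2.08 ± 0.09, adjusted p = 1.0e-24). The phosphofructokinase gene Pfkp had 0.331, 0.288 and 0.511 TPM in TE, against 10.3, 8.9 and 8.44 TPM in ICM (log2 difference -2.89 ± 0.33, adjusted p = 5.9e-10). Ldha, which makes lactate, had 2.38, 3.29 and 4.85 TPM in TE, against 46.1, 39.8 and 41.5 TPM in ICM (log2 difference -3.30 ± 0.12, adjusted p = 1.1e-28). Each of these 6 genes separated the groups. Pkm, the pyruvate kinase gene, was also lower (347 ± 20.6 TPM in TE, 709.9 ± 36.1 in ICM, log2 difference -1.03 ± 0.13, adjusted p = 4.2e-09). Under median-ratio scaling (-0.86 log2) and without TE replicate 1 (just under 1 log2) Pkm was below the called size. Gapdh (521 ± 52 TPM in TE, 467 ± 12.8 in ICM) and Aldoa (1070.0 ± 48.3 TPM in TE, 1153 ± 11 in ICM) were not called. Aldoc was listed at 0 in every TE library, against 2.71, 1.87 and 2.05 TPM in ICM (adjusted p = 0.028), not called when any of the 6 libraries was left out (adjusted p between 0.054 and 0.094). The number of lower glycolysis genes was 5 without TE replicate 1.

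Amino acid genes were higher for 5 of 28 and lower for 8, with a median of -0.58 log2. Asparagine synthetase, Asns, had 16.3, 19.7 and 13.3 TPM in TE, against 299, 291 and 327 TPM in ICM (log2 difference -4.15 ± 0.17, adjusted p = 5.7e-26). Sat1, which acetylates polyamines, was lower, at a high level in ICM (719 ± 35.3 TPM in TE, 2801 ± 117 in ICM, log2 difference -1.96 ± 0.15, adjusted p = 3.6e-15). Odc1, which starts polyamine synthesis, was higher (226 ± 25 TPM in TE, 113 ± 22.7 in ICM, log2 difference 1.01 ± 0.18, adjusted p = 1.5e-05). It lay at the edge of the called size, with 0.92 log2 without TE replicate 1, 0.89 and 0.98 without ICM replicate 1 or 2, and 0.98 with array weights. The cationic transporter Slc7a3 was lower (1.58, 0 and 1.33 TPM in TE, against 21.1, 12.5 and 13.7 TPM in ICM, log2 difference -3.17 ± 0.44, adjusted p = 9.3e-08). The neutral transporter Slc1a4 was lower too (0.14 ± 0.243 TPM in TE, 4.45 ± 1.71 in ICM, log2 difference -2.23 ± 0.47, adjusted p = 0.00023). In contrast Slc6a14, another transporter, had 28.7, 34.2 and 35.8 TPM in TE, against 5.65, 2.28 and 8.68 TPM in ICM (log2 difference 2.503 ± 0.31, adjusted p = 5.7e-09). Slc38a1 was also higher (17.7 ± 1.1 TPM in TE, 2.77 ± 0.287 in ICM, log2 difference 2.31 ± 0.34, adjusted p = 4.5e-07). Of serine synthesis the first enzyme, Phgdh, was higher (380.3 ± 33 TPM in TE, 169.8 ± 22.1 in ICM, log2 difference 1.16 ± 0.15, adjusted p = 1.6e-08). Psat1, the next, was at 152 ± 0.913 TPM in TE, 266 ± 11.4 in ICM (-0.80 ± 0.19 log2), short of the called size. Slc7a7, a cationic transporter subunit gene, was the fifth higher one (13.4 ± 2.37 TPM in TE, 4.95 ± 2.22 in ICM, log2 difference 1.35 ± 0.24, adjusted p = 1.1e-05). Without ICM replicate 2 its difference was 0.98 log2.

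Of 99 respiratory chain genes, a family taken by name, 1 was called higher and 1 lower, and the median was 0.23 log2. For 57 of them every TE library lay above every ICM library and for 13 below, against 17.7% and 27.3% of all genes. Cox5a (2974 ± 93.8 TPM in TE, 1466 ± 53.1 in ICM, log2 difference 1.02 ± 0.12, adjusted p = 3.6e-10) lay at the called size, and just below it without ICM replicate 2 or TE replicate 1. Cox4i1 was at 2900.3 ± 39.5 TPM in TE, 2028 ± 37.2 in ICM (0.52 ± 0.13 log2). The lower call, Cox6b2 (4.5 ± 0.766 TPM in TE, 12.3 ± 4.1 in ICM), was lost when any library other than ICM replicate 1 was left out (adjusted p between 0.078 and 0.18), under quantile normalization (0.084), at a pseudocount of 0.1 TPM (0.21) and under median-ratio scaling (0.087). Of 84 ribosomal protein genes 1 was called, the retrogene Rpl10l, which shares its sequence with its parent (75.4 ± 4.54 TPM in TE, 202 ± 28.3 in ICM, log2 difference -1.40 ± 0.29, adjusted p = 0.00016). The ribosomal median was -0.12 log2, and 0.03 under median-ratio scaling, so that no direction held. Every TE library lay below every ICM library for 41 of them and above for 4. Of 39 proteasome genes 1 was called, the immunoproteasome subunit Psmb9 (0.48, 3.97 and 1.74 TPM in TE, against 37.3, 36.1 and 42 TPM in ICM, log2 difference -3.86 ± 0.63, adjusted p = 3.0e-06). Every TE library lay below every ICM library for 23 of the 39 and above for 4, while the proteasome median was -0.18 log2 as deposited and near 0 under median-ratio scaling. Psma7 was 2302 ± 66.3 TPM in TE, 2192 ± 52.9 in ICM.

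Among chromatin genes the DNA methylation list had 2 of 21 higher and 4 lower, with a median of -0.49 log2. The imprint keeper Zfp57, which binds methylated DNA, had 12.1, 14.1 and 15.7 TPM in TE, against 81.6, 113 and 115 TPM in ICM (log2 difference -2.79 ± 0.24, adjusted p = 7.1e-14). Its partner Trim28 had 75.2, 75.1 and 72.4 TPM in TE, against 150.3, 151 and 170.3 TPM in ICM (log2 difference -1.07 ± 0.20, adjusted p = 5.0e-05). Under median-ratio scaling (-0.90 log2) and quantile normalization (-0.94 log2) it was below the called size. The dioxygenase gene Tet1 had 4.34, 5.47 and 4.38 TPM in TE, against 24.5, 23.6 and 24.4 TPM in ICM (log2 difference -2.14 ± 0.26, adjusted p = 2.3e-09). Uhrf1, which guides maintenance methylation, had 29.7, 26.2 and 32.5 TPM in TE, against 102, 101 and 103 TPM in ICM (log2 difference -1.77 ± 0.23, adjusted p = 1.7e-08). Dnmt1 was 3.6 ± 0.181 TPM in TE, 8.95 ± 3.11 in ICM (log2 difference -1.06 ± 0.46, adjusted p = 0.10) and not called in the main fit. Dnmt1 was called lower with array weights (adjusted p = 2.1e-05) and with the groups fitted alone (0.018, and 0.027 with the replicate number as a block). The de novo methyltransferase gene Dnmt3b was higher (45.4, 59.7 and 66.6 TPM in TE, against 16.2, 24.1 and 22.7 TPM in ICM, log2 difference 1.41 ± 0.22, adjusted p = 1.1e-06). Ehmt2, an H3K9 methyltransferase gene, was the other higher one (13.6 ± 1.14 TPM in TE, 6.41 ± 2.39 in ICM, log2 difference 1.03 ± 0.34, adjusted p = 0.022). Its call was lost without ICM replicate 2 (adjusted p = 0.20), TE replicate 2 (0.064) or TE replicate 3 (0.068).

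Of 38 Polycomb and Trithorax genes 2 were higher and 4 lower, against 5.92% and 7.62% of all genes. The Polycomb methyltransferase Ezh1 had 1.76, 2.17 and 2.15 TPM in TE, against 9.36, 14.2 and 15.1 TPM in ICM (log2 difference -2.18 ± 0.46, adjusted p = 0.00023), while Ezh2 was 45.6 ± 2.32 TPM in TE, 82.1 ± 2.25 in ICM (-0.83 ± 0.27 log2), short of the called size. The H3K4 demethylase gene Kdm5b had 19.4, 20.9 and 19.12 TPM in TE, against 69.97, 66.2 and 67.1 TPM in ICM (log2 difference -1.72 ± 0.24, adjusted p = 1.3e-07). The accessory genes Epop (7.91 ± 0.828 TPM in TE, 21.5 ± 2.86 in ICM, log2 difference -1.33 ± 0.38, adjusted p = 0.0068) and Pcgf6 (29.8 ± 1.14 TPM in TE, 73.4 ± 6.42 in ICM, log2 difference -1.27 ± 0.25, adjusted p = 7.7e-05) were lower. Mtf2, another accessory subunit, had 340.2, 371 and 362 TPM in TE, against 129, 121 and 135 TPM in ICM (log2 difference 1.47 ± 0.20, adjusted p = 6.5e-08). Pcgf5 had 17.6, 17.3 and 9.93 TPM in TE, against 3.57, 4.28 and 2.002 TPM in ICM (log2 difference 1.89 ± 0.32, adjusted p = 4.6e-06). Mtf2 and Pcgf5 were thus the higher ones. Of 28 imprinted genes 1 was higher and 1 lower, beside those same shares of all genes. The number lower was 4 at a pseudocount of 0.1 TPM, 3 with array weights or the groups fitted alone, and 2 without ICM replicate 1. The lower one was Phlda2, a restraint on placental growth, with 0, 4.15 and 0 TPM in TE, against 14.1, 12.2 and 17.8 TPM in ICM (log2 difference -3.17 ± 0.32, adjusted p = 1.3e-11). Rasgrf1 was the higher one (1.78 ± 1.07 TPM in TE, 0.14 ± 0.242 in ICM, log2 difference 1.22 ± 0.25, adjusted p = 0.00012). Its difference was below the called size without TE replicate 1 (0.98 log2).

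Cell cycle and p53 genes were higher for 3 of 36 and lower for 5, against 5.92% and 7.62% of all genes. Trp53 itself had 73, 90.4 and 90.2 TPM in TE, against 372, 363 and 326 TPM in ICM (log2 difference -2.06 ± 0.10, adjusted p = 1.9e-22). Its target gene Cdkn1a, the inhibitor p21, was higher (25.2, 28.2 and 31.4 TPM in TE, against 6.65, 8.77 and 6.37 TPM in ICM, log2 difference 1.83 ± 0.46, adjusted p = 0.0020). Cdkn1b, the inhibitor p27, was lower (4.79, 4.69 and 2.76 TPM in TE, against 16.3, 16 and 18.5 TPM in ICM, log2 difference -1.84 ± 0.44, adjusted p = 0.0011). Neither was called with a pseudocount of 0.1 TPM (adjusted p = 0.066 for Cdkn1a and 0.069 for Cdkn1b). The p53 target Pmaip1 fell (2.24 ± 2.18 TPM in TE, 12.4 ± 2.62 in ICM, log2 difference -2.28 ± 0.53, adjusted p = 0.00094). Bax was 375 ± 11.8 TPM in TE, 538 ± 20.1 in ICM (-0.52 ± 0.18 log2), short of the called size. The replication gene Mcm5 was lower (64.6 ± 13.1 TPM in TE, 156 ± 8.68 in ICM, log2 difference -1.28 ± 0.22, adjusted p = 7.8e-06), with Mcm2 (88.9 ± 5.03 TPM in TE, 198 ± 2.89 in ICM, log2 difference -1.15 ± 0.26, adjusted p = 0.00049). The Mcm2 difference was -0.98 log2 under median-ratio scaling. The cyclin gene Ccnd2 (2.04 ± 0.397 TPM in TE, 0.11 ± 0.191 in ICM, log2 difference 1.46 ± 0.34, adjusted p = 0.00074) and the kinase Cdk6 (1.93 ± 0.582 TPM in TE, 0.177 ± 0.108 in ICM, log2 difference 1.30 ± 0.26, adjusted p = 9.6e-05) were higher at low levels, and Ccnd3 was 382 ± 39.6 TPM in TE, 522 ± 14.6 in ICM and not called.

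Immediate early and heat shock genes can move with the handling of cells. They were higher for 2 of 23 and lower for 3, against 5.92% and 7.62% of all genes. Klf2, also a naive pluripotency gene, had 2.89, 2.77 and 4.12 TPM in TE, against 34.3, 39.1 and 43.6 TPM in ICM (log2 difference -3.24 ± 0.34, adjusted p = 5.9e-11). Dusp1 had 17.8, 19.5 and 22.9 TPM in TE, against 56.5, 53.2 and 67.4 TPM in ICM (log2 difference -1.51 ± 0.30, adjusted p = 7.6e-05). Jund (22.9, 20.6 and 25.6 TPM in TE, against 3.37, 4.03 and 4.8 TPM in ICM, log2 difference 2.25 ± 0.36, adjusted p = 2.0e-06) and Fosl2 (1.91 ± 0.3997 TPM in TE, 0.124 ± 0.104 in ICM, log2 difference 1.37 ± 0.25, adjusted p = 2.7e-05) were higher. Ier2 was the third lower one (91.9 ± 10.4 TPM in TE, 185 ± 3.77 in ICM, log2 difference -1.01 ± 0.17, adjusted p = 8.3e-06). Its difference was below the called size under median-ratio scaling (-0.84 log2), quantile normalization (-0.88) and without TE replicate 2 (-0.91) or ICM replicate 2 (-0.99). Hspa8 (4574 ± 179 TPM in TE, 5576 ± 187 in ICM) and Hsp90aa1 (3537 ± 45.6 TPM in TE, 3231 ± 17.5 in ICM) were not called. The part of handling in these differences was not tested.

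Several of the widest gaps lay outside the lists. Alcohol dehydrogenase, Adh1, had 1933, 1976 and 1927 TPM in TE, against 47.8, 45.1 and 57.7 TPM in ICM (log2 difference 5.26 ± 0.32, adjusted p = 1.3e-19). The peptide transporter gene Slc15a2 had 291, 298 and 287 TPM in TE, against 5.97, 6.76 and 8.39 TPM in ICM (log2 difference 5.20 ± 0.32, adjusted p = 1.9e-19). Cbs, which makes cystathionine from homocysteine, had 95.8, 93.6 and 105 TPM in TE, against 2.32, 1.46 and 1.93 TPM in ICM (log2 difference 5.11 ± 0.36, adjusted p = 9.6e-17). These were abundant in TE and near the bottom in ICM. The small heat shock gene Cryab had 118, 113 and 120.3 TPM in TE, against 0, 2.26 and 5.09 TPM in ICM (log2 difference 5.45 ± 0.65, adjusted p = 1.5e-09). The tetraspanin Tspan8 (776 ± 31.3 TPM in TE, 18.9 ± 2.66 in ICM, log2 difference 5.29 ± 0.51, adjusted p = 2.8e-12) and Pdzk1ip1 (101 ± 4.89 TPM in TE, 1.44 ± 0.896 in ICM, log2 difference 5.46 ± 0.60, adjusted p = 1.6e-10) were of the same order. Prxl2b (562 ± 19.06 TPM in TE, 12.6 ± 2.78 in ICM, log2 difference 5.39 ± 0.49, adjusted p = 4.3e-13) and Dppa1 (578 ± 26.1 TPM in TE, 16.3 ± 2.8 in ICM, log2 difference 5.07 ± 0.26, adjusted p = 3.5e-22) followed. Rab17, a GTPase of epithelial trafficking, was higher (131 ± 4.85 TPM in TE, 3.58 ± 1.86 in ICM, log2 difference 4.95 ± 0.47, adjusted p = 1.7e-12). The receptor gene Tnfrsf9 (73.5 ± 8.33 TPM in TE, 1.59 ± 1.38 in ICM, log2 difference 5.03 ± 0.36, adjusted p = 1.4e-16) completed the 15 largest rises, among named genes whose libraries did not overlap, with Acer1, Car4, Id2, Krt18 and Lgals1.

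On the lower side uridine phosphorylase, Upp1, had 47.2, 47.9 and 42.9 TPM in TE, against 1404, 1466 and 1446 TPM in ICM (log2 difference -4.94 ± 0.53, adjusted p = 7.7e-11). The homeobox gene Hesx1 had 0, 0.317 and 0.748 TPM in TE, against 33.8, 48.7 and 40.9 TPM in ICM (log2 difference -4.98 ± 0.41, adjusted p = 2.5e-14). Lmo2, a LIM-only factor of blood progenitors, had 0, 0 and 0.567 TPM in TE, against 46.2, 31.9 and 47.7 TPM in ICM (log2 difference -5.19 ± 0.63, adjusted p = 2.3e-09). The endoplasmic reticulum protein gene Rcn1 was listed at 0 in every TE library, against 41.5, 33.6 and 39.1 TPM in ICM (adjusted p = 5.9e-22), and Sapcd1 was listed at 0 in every TE library, against 34, 35 and 25.6 TPM in ICM (adjusted p = 1.5e-09). Of these 5 genes Upp1 kept a moderate level in TE and the others were near 0. The epoxide hydrolase gene Ephx2 (3.08 ± 1.4 TPM in TE, 125 ± 19.4 in ICM, log2 difference -4.99 ± 0.53, adjusted p = 6.9e-11) and Fam25c (17.1 ± 3.87 TPM in TE, 492 ± 22.1 in ICM, log2 difference -4.79 ± 0.43, adjusted p = 2.3e-13) were also lower. So were the long non-coding RNA Platr26 (1.77 ± 0.278 TPM in TE, 79.1 ± 3.02 in ICM, log2 difference -4.86 ± 0.32, adjusted p = 2.3e-18) and the dynein-2 chain gene Dync2li1 (0.177 ± 0.186 TPM in TE, 29.2 ± 4.84 in ICM, log2 difference -4.68 ± 0.69, adjusted p = 3.1e-07). These are among the 15 largest falls, which further held Bmp4, Tdgf1, Tdh, Timp1, Crygc and Crygd.

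The gamma crystallin genes, known as lens proteins, were all lower in TE, 6 of 6, a family noticed after values were seen. Crygd had 0.95, 3.06 and 3.2 TPM in TE, against 107, 129.8 and 122 TPM in ICM (log2 difference -5.22 ± 0.24, adjusted p = 4.1e-24). Crygc had 1.002, 1.03 and 4.24 TPM in TE, against 97.9, 88 and 112 TPM in ICM (log2 difference -5.17 ± 0.60, adjusted p = 7.2e-10). Cryge had 4.15, 2.2 and 5.49 TPM in TE, against 85, 93.7 and 90.5 TPM in ICM (log2 difference -4.26 ± 0.32, adjusted p = 1.1e-15). Cryga, Crygb and Crygf were listed at 0 in every TE library, and summed gamma crystallin levels were 6.11 to 12.9 TPM in TE and 311 to 346 TPM in ICM. The genes are related neighbours on chromosome 1, so the split of reads among some of them may be uncertain.

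Of 10 oocyte and cumulus genes tested, 2 were lower in TE. The zona pellucida gene Zp3 had 0, 1.28 and 0.876 TPM in TE, against 19.7, 29.1 and 25.5 TPM in ICM (log2 difference -3.97 ± 0.54, adjusted p = 6.2e-08). Khdc3, of the maternal complex at the egg cortex, had 1955, 2191 and 2127 TPM in TE, against 4613, 4438 and 4555 TPM in ICM (log2 difference -1.12 ± 0.36, adjusted p = 0.020). The Khdc3 call was not made when ICM replicate 1 or 3 or TE replicate 1 or 3 was left out (adjusted p between 0.050 and 0.069) or under median-ratio scaling (0.075) or a pseudocount of 0.1 TPM (0.54). The smaller pseudocount left the Khdc3 difference at -1.12 log2, and the fitted spread is shared over all 67 libraries. Ooep, of the same maternal complex, was 111 ± 7.64 TPM in TE, 69.8 ± 8.88 in ICM and not called. The cumulus genes Amh and Foxl2 did not reach the level for testing. Xist was between 14.9 and 25.8 TPM in TE and between 9.77 and 12.9 TPM in ICM, and the Y-linked Ddx3y between 7.71 and 9.26 TPM in TE and between 7.07 and 10.96 TPM in ICM. Both were present in every library, and none of 10 X inactivation and Y-linked genes was called by limma, with 1 at an unadjusted p under 0.05.

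The same kind of contrast was made at E4.5, where TE was set against Epi, a lineage that descends from part of the ICM. The contrasts share no library. At E4.5 1688 genes were higher in TE (10.8%) and 4158 lower (26.7%), with a median of -0.31 log2 over all genes. Quantile normalization moved that median to -0.02 log2 and the split to 3005 higher and 2783 lower. Rn45s was between 994 and 1056 TPM in TE of E4.5 and between 184228 and 246288 TPM in Epi of E4.5. In Epi replicate 1 3307 genes were listed at 0, against 13659 and 12723 in the other Epi libraries and 11851 to 11963 in TE of E4.5. Without it 1845 genes were higher in TE and 3813 lower, and the median was -0.07 log2. Rescaled without Rn45s, 1344 genes were higher and 5015 lower, and the median was -0.48 log2. Of the 922 genes higher at E3.5, 423 (45.9%) were called higher at E4.5 and 90 (9.76%) lower. Of the 1186 lower, 648 (54.6%) were called lower and 48 (4.05%) higher. The 423 are 25.1% of the genes higher at E4.5, and the 648 are 15.6% of those lower. After quantile normalization at E4.5 560 and 516 kept their direction and 51 and 98 had the opposite one.

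Within TE the levels of some markers of E3.5 a day later are given as a description. Cdx2 was 3.58 ± 1.77 TPM in TE of E4.5, against 30.4 ± 4.99 TPM in TE of E3.5. Gata3 was 88.5 ± 4.72 TPM in TE of E4.5, against 239 ± 26.1 TPM in TE of E3.5. Elf5 was 183 ± 4.44 TPM in TE of E4.5, against 12.9 ± 3.63 TPM in TE of E3.5. These means lay outside each other's spread. Krt19 was 62.2 ± 2.4 TPM in TE of E4.5 and listed at 0 in every TE library of E3.5. Krt7 was 123 ± 5.12 TPM in TE of E4.5, against 10.8 ± 4.33 TPM in TE of E3.5. The differences from the inner lineage kept their sign for Cdx2, Gata3, Elf5, Krt7 and Krt18, and that of Krt19 was 4.12 log2 at E4.5 (adjusted p = 3.3e-09). Elf5 was 21.3 ± 1.64 TPM in Epi of E4.5, against 0.357 ± 0.328 TPM in ICM of E3.5. Krt7 (14.3 ± 7.36 against 0 ± 0 TPM) and Krt18 (332 ± 29.8 against 133 ± 8.67 TPM) were also higher in Epi. Cdx2 (0.290 ± 0.502 against 0.975 ± 0.873 TPM) and Gata3 (5.52 ± 4.55 against 19.6 ± 4.96 TPM) had lower means in Epi. The part of TE cells carried into Epi libraries was not tested. Over all genes the difference changed between the ages for 4110 (26.4%). The change was -2.29 log2 for Cdx2 (adjusted p = 0.0068), and it was called for Krt19 as well (adjusted p = 1.1e-06).

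On the inner side Nanog was 250.3 ± 63.3 TPM in Epi of E4.5, against 404 ± 19.9 TPM in ICM of E3.5. Fgf4 was 31.8 ± 6.91 TPM in Epi of E4.5, against 32.6 ± 2.39 TPM in ICM of E3.5. Bmp4 was 98.8 ± 23.1 TPM in Epi of E4.5, against 83 ± 9.42 TPM in ICM of E3.5. TE held 0.786 ± 0.325 TPM of Nanog at E4.5, so that the difference widened to -7.12 log2 (change -4.60, adjusted p = 2.2e-08). For Bmp4 it was -3.05 log2 at E4.5 (change 2.68, adjusted p = 0.014), TE of E4.5 being at 11 ± 2.63 TPM. Cldn4 and Cldn6 had been higher in TE at E3.5. Cldn4 was at 35.4 ± 1.19 TPM in TE and 40.2 ± 22.3 TPM in Epi of E4.5 (adjusted p = 0.94), and Cldn6 at 77.5 ± 3.4 TPM in TE and 52.3 ± 8.62 TPM in Epi (0.57 log2, below the called size). The change of the difference was -2.92 ± 0.52 log2 for Cldn4 (adjusted p = 9.9e-06) and -3.81 ± 0.20 log2 for Cldn6 (adjusted p = 1.7e-21). Ccn2 was again lower in TE (0.226 ± 0.316 TPM in TE and 47.1 ± 6.95 TPM in Epi, -5.31 log2, adjusted p = 1.4e-15), and so was Spp1 (41.6 ± 1.3 TPM in TE and 3447 ± 579 TPM in Epi, -6.33 log2, adjusted p = 3.7e-24). Id1 was at 8.23 ± 1.93 TPM in TE and 13 ± 2.26 TPM in Epi of E4.5, with no call (adjusted p = 0.11).

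**Figure D5:**
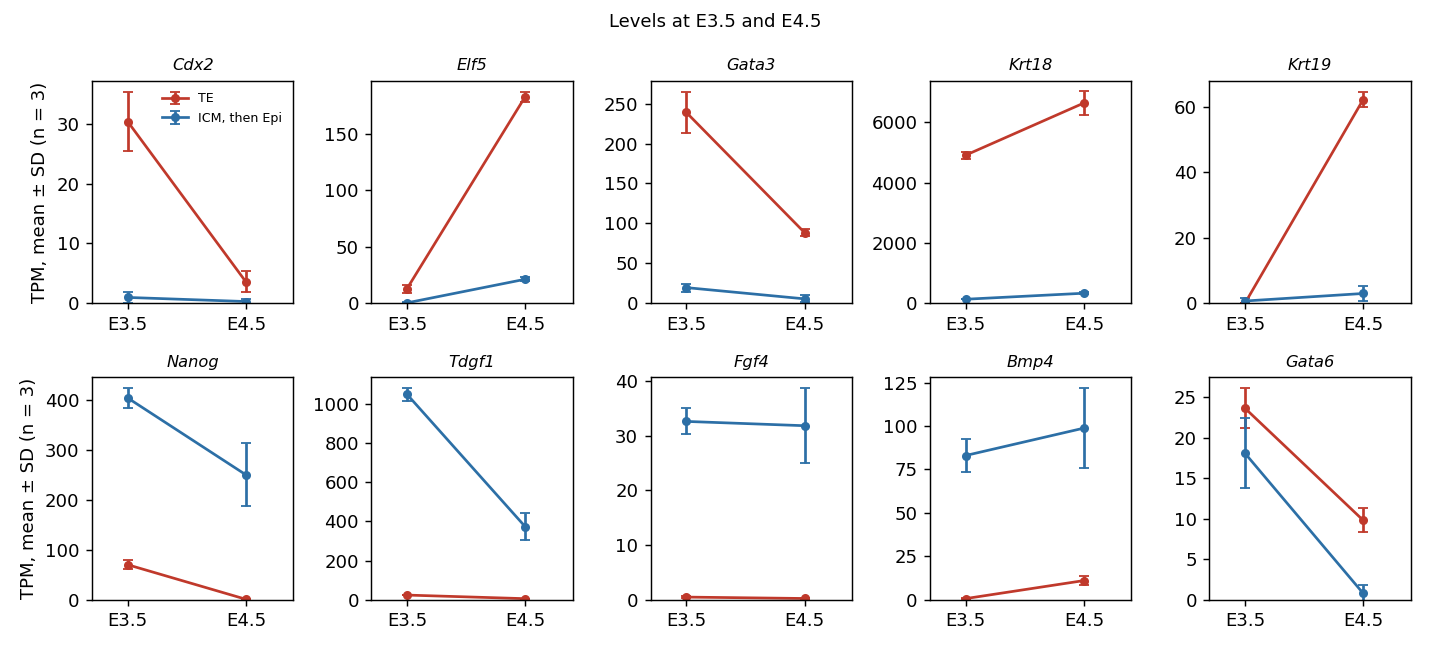
Mean TPM ± SD (n = 3) of 10 genes, y axis, at E3.5 and E4.5, x axis, with TE in red and the inner lineage, ICM at E3.5 and Epi at E4.5, in blue. In TE Cdx2 is lower at E4.5 and Elf5 and Krt19 are higher, while Fgf4 and Bmp4 are higher on the inner side than in TE at both ages.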

How the data were processed

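Polyadenylated RNA of mouse blastocyst cells was measured by Smart-seq2. The authors deposited 1 table of TPM for 25006 genes in 67 libraries of 23 groups. The submitters' processing notes name HISAT2 2.2.1, StringTie 2.2.1, Cufflinks and the build mm10, without saying which tool gave the values; the annotation, strand and filters are not given in the sources used here. TPM divides by transcript length and library total, so that 1 abundant transcript lowers all others, and it keeps no read depth.

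Differences were fitted with limma 3.58.1 in R 4.3.3 on log2(TPM + 1), with group means over all 67 libraries, a mean-dependent prior variance, no block or covariate, and genes at 1 TPM or more in at least 3 libraries. Benjamini-Hochberg adjusted p-values, 2-sided, cover all 15567 genes. The fit was tested on simulated data. TE of E3.5 minus ICM of E3.5 was the contrast. TE of E4.5 minus Epi of E4.5, and the change between these differences, were fitted likewise. Alternatives were the pseudocount, the filter, the scaling, library weights, a fit of the compared groups alone with and without the replicate number as a block, and each library left out.

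The members, 30 gene lists and 6 families taken by name prefix were chosen with earlier results of these data known. Named genes are the markers Cdx2, Krt18 and Nanog, up to 4 called genes per direction and 2 others of highest TPM per list, the 15 largest separated differences per direction among genes with a symbol that is not a placeholder, and partners of these. Cd24a, Crygb, Crygf, Eomes, Epcam, Fgf3, Grhl1, Lgals3, Mcm2, Odc1, Ovol1, Perp, Pkm, Porcn, Prdm14, Sat1, Sav1, Tfap2a, Tmsb10, Utf1 and Zscan10 were added after their values were seen. A few genes are not reported here. List symbols were found in the table for 764 of 771. Promoters of 12003 tested genes were matched to RefSeq on GRCm38.p6 by symbol, the first listed being used for a gene with several.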

Additional observations from a re-analysis of the deposited data

Results flagged for a closer look

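The difference between TE and the inner lineage, ICM at E3.5 and Epi at E4.5, was itself compared between the ages with limma, and 4110 of 15567 genes (26.4%) changed at an adjusted p under 0.05 and by at least 1 log2, and 4104 did without Epi replicate 1 of E4.5. Among the named genes the largest rises of the difference, at E4.5 relative to E3.5, were in Psmb9, Phlda2, Lmo2 and Spry2. For the immunoproteasome subunit Psmb9 the change was 6.35 log2, with 8.32 ± 2.69 TPM in TE and 0.702 ± 0.647 TPM in Epi of E4.5. At E3.5 the levels were 2.06 ± 1.77 TPM in TE, 38.5 ± 3.13 in ICM. For the imprinted gene Phlda2 it was 5.62 log2, with 609 ± 5.73 TPM in TE and 115 ± 40.4 TPM in Epi of E4.5, while at E3.5 TE had been the lower side. For the LIM-only gene Lmo2 it was 5.254 log2, with 0.372 ± 0.457 TPM in TE and 0.338 ± 0.585 TPM in Epi of E4.5, while at E3.5 the inner side was the high one (0.189 ± 0.327 TPM in TE, 41.9 ± 8.75 in ICM). For the ERK feedback gene Spry2 it was 4.89 log2, with 96.5 ± 2.18 TPM in TE and 3.89 ± 0.847 TPM in Epi of E4.5.

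Among the genes reported here the largest falls of the difference were in Jup, Nodal, Slc7a7 and Slc9a3r1. For plakoglobin, Jup, the change was -7.47 log2, with 1.91 ± 0.504 TPM in TE and 304 ± 71.8 TPM in Epi of E4.5. At E3.5 they were 25.9 ± 2.24 TPM in TE, 14.8 ± 2.73 in ICM. For the ligand Nodal it was -5.58 log2, with 0.245 ± 0.218 TPM in TE and 58.3 ± 5.67 TPM in Epi of E4.5. For the amino acid transporter subunit Slc7a7 it was -5.10 log2, with 18.2 ± 1.21 TPM in TE and 269 ± 99.4 TPM in Epi of E4.5. For the apical scaffold gene Slc9a3r1 it was -4.796 log2, with 52.2 ± 5.39 TPM in TE and 206 ± 15.6 TPM in Epi of E4.5. At E3.5 TE was the higher side (159 ± 13.2 TPM in TE, 21.8 ± 5.81 in ICM). All 8 changes were called under each of the 21 alternatives run. Without Epi replicate 1 the values were 6.44 for Psmb9, 5.61 for Phlda2, 5.59 for Lmo2, 4.84 for Spry2, -7.68 for Jup, -5.59 for Nodal, -5.248 for Slc7a7 and -4.77 for Slc9a3r1. The Epi libraries of E4.5 held far more Rn45s than the other libraries of these contrasts. Elsewhere in the series Rn45s was also high in primitive endoderm of E4.5 (150323 to 206165 TPM). In vivo epiblast of E5.0 had 82020 to 110364 TPM. Rescaled without Rn45s, 1035 changes were upward and 3525 downward, against 1385 and 2725 as deposited, and all 8 changes above were called.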

How the results depend on the processing

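Of 285 genes named by rule 191 were called; 162 of the calls held under all alternatives run, 29 were lost under at least 1 of them, 20 of these when a library was left out, and none of the 285 reversed its sign where called. The uncalled genes included 13 that were called under some alternative. The spread per gene is fitted over all 67 libraries, so a smaller pseudocount can move an adjusted p with the difference almost unchanged. With no minimum difference 1233 genes were higher and 1807 lower in TE at E3.5. Leaving out 1 of the 6 libraries compared at E3.5 gave 793 to 835 genes higher and 990 to 1096 lower in TE than in ICM. The full fit gave 922 and 1186. Without Epi replicate 1 of E4.5, which enters only the fitted spread of that contrast, the counts were 938 and 1196. Leaving out 1 compared library gave 1536 to 1845 genes higher and 3808 to 4545 lower in TE than in Epi. It gave 3723 to 4439 genes whose difference changed between the ages. At E4.5 quantile normalization gave 3005 genes higher and 2783 lower in TE and median-ratio scaling 2662 and 3287, and rescaling without Rn45s 1344 and 5015, against 1688 and 4158 as deposited; the cause was not tested. The libraries carry replicate numbers. Same-numbered TE and ICM libraries deviated from their group means with correlations of 0.01, -0.02 and 0.01. Of these 6 libraries 2 correlated best with the library of their own number. No pairing was thus seen across genes. Whether same-numbered libraries came from the same embryos is not stated, and so few libraries cannot settle it. With the groups compared alone and the replicate number as a block, 1125 genes were higher and 1498 lower in TE than in ICM, against 1123 and 1495 without the block. The block gave 1486 genes higher and 3609 lower in TE than in Epi, and 4110 changes. Depth is unknown, so that a gene listed at 0 may be present below what these libraries could show, and values of a few TPM from few cells vary most.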
